A study of Mus musculus with 3 samples.

Results

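The genes described here are *Sox9*, *Sox5* and *Sox6*, which encode transcription factors of cartilage. They were taken by symbol, are 3 of the 27755 genes listed for each of the culture and tail libraries, and are 3 of the 25936 genes listed for the younger culture. In the GENCODE annotation of the mouse genome build GRCm38, *Sox9* lies at chr11:112782224-112787760 on the forward strand, *Sox5* at chr6:143828425-144781977 on the reverse strand and *Sox6* at chr7:115470872-116038796 on the reverse strand. The study started from mESCs, embryonic stem cells, of ScxGFP mice, in which a green fluorescent protein reports *Scx*, led them towards tendon and fibrocartilage, and asked how close they came to their counterparts in the embryo. Droplet single-cell RNA-seq was done on 3 libraries, 1 for each condition. The D6 PM library came from embryoid bodies grown to paraxial mesoderm, the tissue that forms the somites, with the BMP inhibitor LDN-193189 and the WNT agonist CHIR. The D10 culture library came from a monolayer of such cells treated further with TGFβ1, the smoothened agonist SAG and FGF2. The E14.5 tail library came from tail tissue cut from mouse embryos, with no such treatment. The sources used here do not say which ScxGFP mESC line gave these libraries, nor how many embryos gave the tail.

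SOX9 is required for cartilage to form: mesenchymal cells that lack it do not become chondrocytes. SOX5 and SOX6 are close relatives of each other, form dimers through a coiled coil and carry no transactivation domain of their own. The 3 factors act together on enhancers of cartilage matrix genes such as *Col2a1* and *Acan*, where SOX9 activates and SOX5 and SOX6 strengthen its binding. In tendon and its attachment to bone, cells that express both *Scx* and *Sox9* are known progenitors. Outside cartilage, *Sox9*, *Sox5* and *Sox6* are each known in other tissues, including neural crest derivatives, muscle and red blood cell precursors.

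All SOX proteins bind DNA through an HMG box and share a core recognition sequence, so promoters were searched for it. The letters searched were ACAAT, with its complement ATTGT, and the longer ACAATGG, with its complement CCATTGT, on both strands. Every match to the longer word is also a match to the shorter. Promoters came from RefSeq on GRCm38.p6, as 250 bases before to 50 bases after each start site. *Sox9* had no entry among these promoters and could not be searched. *Sox5* and *Sox6* had 7 promoters between them, of which 4 held the short word and 1 the long word. Of 32851 promoters of the same length, 31.02% held the short word and 3.662% the long word. For each of *Sox5* and *Sox6*, the window with most matches is shown: the only long match in *Sox5*, and 3 short matches in *Sox6*. The *Sox5* window is chr6:143947107-143947356, and it belongs to a start site inside the annotated span of the gene. The *Sox6* window is chr7:115801610-115801859, which also lies inside its gene. Both are printed 5′ to 3′ on the reverse strand, with the matches in capitals.
Sox5: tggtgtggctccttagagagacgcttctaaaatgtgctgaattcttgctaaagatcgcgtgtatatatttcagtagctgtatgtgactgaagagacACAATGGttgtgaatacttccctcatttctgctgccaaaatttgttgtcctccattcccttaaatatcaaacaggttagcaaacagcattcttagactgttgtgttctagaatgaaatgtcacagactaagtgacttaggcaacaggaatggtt
Sox6: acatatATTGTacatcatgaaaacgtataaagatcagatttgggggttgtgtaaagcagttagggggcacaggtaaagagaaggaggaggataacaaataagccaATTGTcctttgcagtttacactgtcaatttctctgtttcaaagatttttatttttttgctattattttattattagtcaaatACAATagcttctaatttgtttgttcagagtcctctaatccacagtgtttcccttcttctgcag
The match in *Sox5* starts 154 bases before the start site, and those in *Sox6* start 244, 145 and 63 bases before. Of the 20 cartilage matrix genes considered further on, 16 matched the promoter table, with 20 promoters. Of these, 3 held the short word, which is 15%, and 1 held the long word. The first 60 bases of the *Epyc* promoter, chr10:97643818-97643877, and of the *Hapln1* promoter, chr13:89540386-89540445, are shown on the forward strand as examples of matrix genes with a match.
Epyc: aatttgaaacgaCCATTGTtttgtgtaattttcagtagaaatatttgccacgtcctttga
Hapln1: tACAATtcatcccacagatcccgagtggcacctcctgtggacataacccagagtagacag
A match describes letters in these windows and does not show that a factor binds there.

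The tables give unique molecular identifiers (UMIs, each standing for an RNA molecule caught at its 3′ end) per gene and cell, with a cluster code for each cell. There were 7821 culture cells (median depth 5622 UMIs), 2052 tail cells (13512) and 5954 D6 PM cells (8171). The libraries shared 3 to 10 cell barcodes pairwise. A level here is CPM, the UMIs that all cells of a code gave for a gene, scaled to a total of 1000000 UMIs. Intervals are exact 95% intervals and cover counting error only, because with 1 library per condition there is no replicate and no test was possible. The authors' clustering used the genes of these same cells, so differences between codes are given as descriptions. UMI levels are not scaled to gene length, so each gene is compared with itself across codes. In the culture and tail, which share their codes, code 1 is the study's tendon cluster, code 2 its proliferating tendon cluster and code 4 its fibrocartilage cluster, matched through the marker shares of the study. The cell numbers listed for the fibrocartilage cluster in the paper are instead those of code 3, so this match rests on markers. In code 3, cartilage markers summed to 42.38 CPM in the culture and 17.51 CPM in the tail. The 6 cartilage markers *Col2a1*, *Acan*, *Matn4*, *Col9a1*, *Hapln1* and *Cnmd* summed to 3866 CPM in culture code 4 against 353.5 in code 1, and to 7970 against 226.3 in the tail. The 10 tendon markers summed to 5958 CPM in culture code 4 and 3801 in tail code 4, so code 4 held tendon transcripts as well. Codes 10, 12 and 14 of the culture had too few cells to give levels.

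All 3 genes had their highest level in code 4, in the culture as in the tail. In culture code 4, *Sox9* stood at 409.6 CPM (388.1 to 431.9; 1362 UMIs in 855 cells), *Sox5* at 109.8 (98.79 to 121.6; 365 UMIs) and *Sox6* at 68.56 (59.95 to 78.06; 228 UMIs). In tail code 4, *Sox9* stood at 1214 CPM (1177 to 1252; 4015 UMIs in 241 cells), *Sox5* at 262.4 (245.3 to 280.5; 868 UMIs) and *Sox6* at 249.1 (232.4 to 266.7; 824 UMIs). Thus code 4 of the tail held 67.96% of that library's *Sox9* UMIs, 57.67% of its *Sox5* UMIs and 47.82% of its *Sox6* UMIs. The same shares in the culture were 27.13%, 28.08% and 32.34%, since the large codes 1 and 2 held most of the rest.

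*Sox9*, the essential factor of the trio, was next highest in code 2, at 150.2 CPM in the culture and 209.5 CPM in the tail. Code 1 followed in the culture with 108.2 CPM, where the interval of its ratio to code 2 stayed clear of 1. In the tail, code 14 (78.38 CPM, 58.18 to 103.3) and code 1 (63.41 CPM, 58.6 to 68.51) came next and could not be told apart. The remaining tail codes lay between 0.9417 CPM in code 12 and 49.34 CPM in code 7. In the culture, code 9, which carried macrophage markers beside tendon markers, had 86.55 CPM (61.25 to 118.8), and the others lay between 0 in code 13, which allows up to 7.288 CPM (3 counts), and 38.14 CPM. In the tail, code 9, which also carried both marker lists, had only 12.75 CPM (8.662 to 18.09).

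*Sox5* had a different second place in each library. In the tail, code 14 followed code 4 with 178.7 CPM (147.4 to 214.7; 114 UMIs in 38 cells). This code carried Schwann cell and neural crest markers, which summed to 7740 CPM. Code 4 was 1.468 times code 14 for *Sox5* (1.207 to 1.801), but 15.49 times for *Sox9* (11.72 to 20.9) and 19.87 times for *Sox6* (10.03 to 46.17). *Sox5* made up 66.28% of the UMIs of the trio in code 14 and 15.21% in tail code 4. Code 14 was the only tail code above code 2 (52.89 CPM) apart from code 4. Tail code 10, with neural markers at 9107 CPM, had 23.71 CPM (16.94 to 32.29) and did not differ beyond counting error from code 1 at 19.36. In the culture, code 8 came second with 50.73 CPM (37.89 to 66.52; 52 UMIs in 155 cells). Its endoderm markers summed to 3404 CPM and its epidermis markers to 1592 CPM. *Sox5* was 52.53% (42.24 to 62.66) of its trio UMIs against 18.51% in the whole library. Codes 2 and 1 of the culture followed with 34.55 and 27.25 CPM.

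*Sox6* stood out in the skin codes of the tail. Code 8 had 110.1 CPM (95.1 to 126.9; 192 UMIs in 82 cells) and code 3 had 86.7 CPM (70.84 to 105.1; 104 UMIs in 49 cells). Both carried epidermis markers, which summed to 6947 and 6353 CPM. Blood markers summed to 1507 CPM in code 8 and 5351 CPM in code 3, and proliferation markers to 284.5 and 1854 CPM. Their part in the *Sox6* levels was not tested. Code 8 was 5.808 times code 1 for *Sox6* (4.73 to 7.131), while for *Sox5* the same ratio was 0.1778 (0.06446 to 0.394) and for *Sox9* 0.597 (0.4562 to 0.77). *Sox6* was 72.73% of the trio UMIs in code 8 and 84.55% in code 3, against 18.86% in the whole tail library. Code 5, with muscle markers at 7588 CPM, had 42.47 CPM (34.24 to 52.08), which was 2.24 times code 1 (1.727 to 2.886). In code 12, with globin and other blood markers at 383297 CPM, 10 of the 11 trio UMIs were *Sox6* (90.91%, 58.72 to 99.77), at 9.417 CPM (4.516 to 17.32). Code 6, the other code with blood markers, had 48 *Sox9*, 4 *Sox5* and 19 *Sox6* UMIs. *Sox9* was 67.61% of its trio UMIs (55.45 to 78.24), an interval that holds the 64.67% of the whole tail library. These UMIs came from few cells, which the interval does not take into account. Of the 71 cells of code 6, 7.042% had a *Sox9* UMI and 4.225% a *Sox6* UMI. *Sox6* was 14.44% of the trio in code 4, and the share was also above this in most other tail codes, with 47.89% in code 9 and 18.64% in code 1. It was 4.651% in code 14 (2.029 to 8.959) and 7.407% in code 10 (2.055 to 17.89). In the culture, the second level was 17.18 CPM in code 2, not distinguishable from code 8 (15.61), and code 1 (13.92), code 11 (9.096) and code 6 (7.164) followed.

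**Figure D1:**
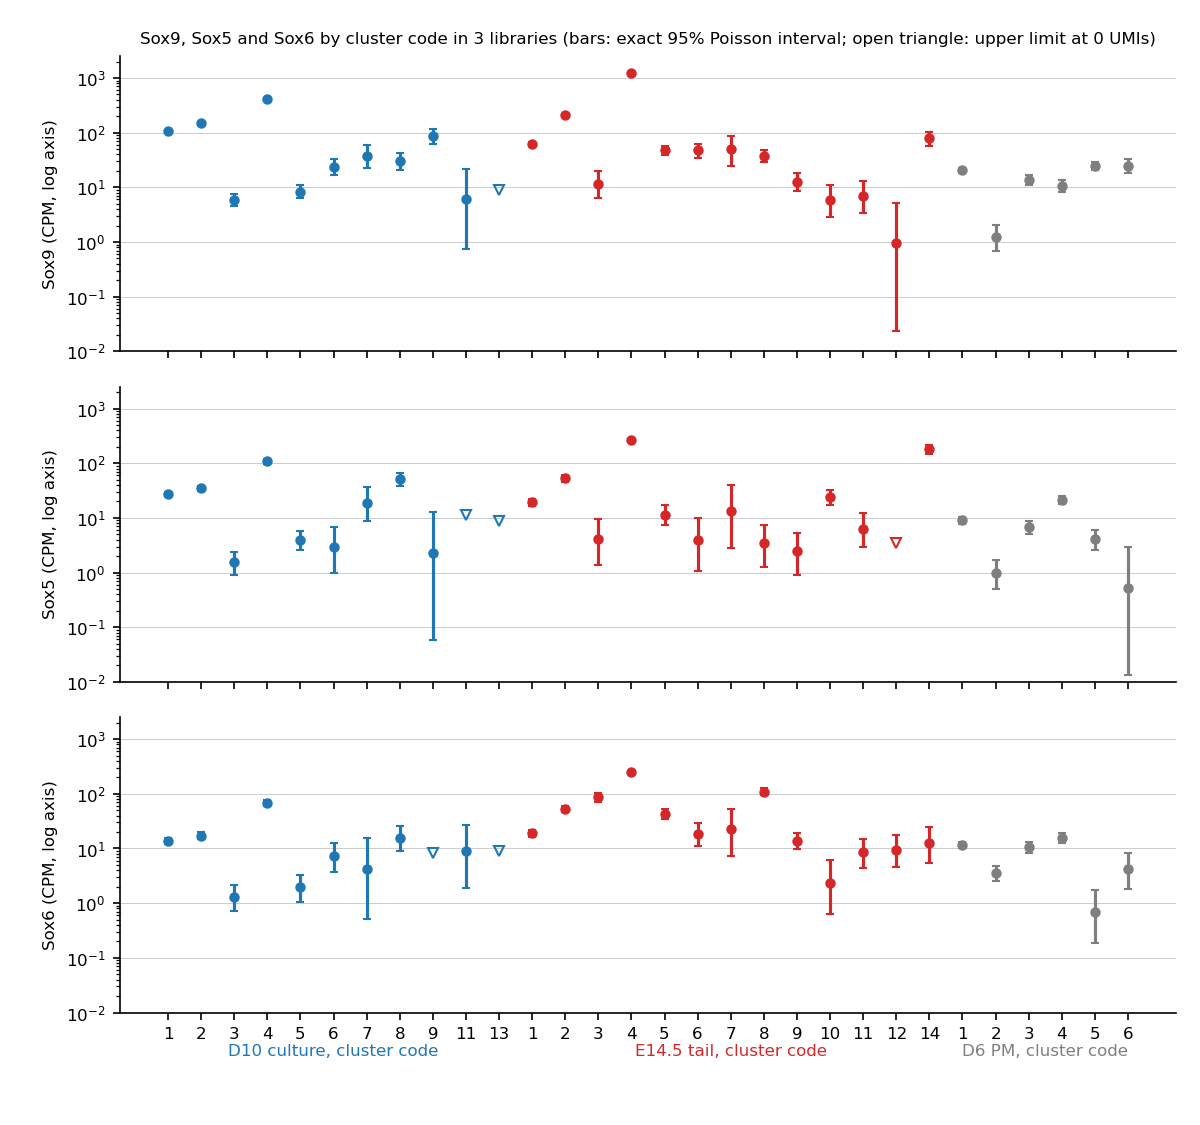
CPM of *Sox9* (top), *Sox5* (middle) and *Sox6* (bottom) on a log axis for each cluster code with at least 20 cells in the D10 culture (blue), the E14.5 tail (red) and D6 PM (grey). Points are levels and bars exact 95% Poisson intervals; an open triangle marks the exact upper limit where no UMI was seen. Code 4 is highest for all 3 genes in the culture and tail, code 14 of the tail comes close to it for *Sox5* (178.7 against 262.4 CPM), and codes 8 and 3 of the tail carry *Sox6* (110.1 and 86.7 CPM).

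Code 4 was compared with code 1 to ask how far each gene separates fibrocartilage from tendon. In the culture, *Sox5* was 4.028 times higher in code 4 (3.5 to 4.635) and *Sox6* 4.924 times (4.082 to 5.938), beside 3.785 (3.525 to 4.064) for *Sox9*. In the tail, the ratios were 13.56 (11.6 to 15.91) for *Sox5* and 13.14 (11.22 to 15.45) for *Sox6*, beside 19.14 (17.61 to 20.84) for *Sox9*. The ratio was thus larger in the tail than in the culture for each gene, with intervals that do not meet. The order of the genes differed: *Sox6* was first in the culture, with an interval that overlaps that of *Sox5*, and *Sox9* was first in the tail. All 3 passed a 2-fold rule in both libraries, which 1.54% of 7077 genes passed upwards and 3.36% downwards in the culture, and 3.65% and 6.28% of 10654 genes in the tail. The rule was applied to genes seen in 10% or more of the cells of either code, which *Sox6* in the culture met only in code 4 (19.88% of cells, against 6.613% in code 1). Ranked by ratio, *Sox6*, *Sox5* and *Sox9* were genes 23, 33 and 37 in the culture, while *Sox9*, *Sox5* and *Sox6* were genes 34, 44 and 47 in the tail.

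By summed level, code 2, whose cells carried proliferation markers, lay between codes 1 and 4. For *Sox5* it was 1.268 times code 1 in the culture (1.102 to 1.458) and 2.732 times in the tail (2.248 to 3.323). For *Sox6* it was 1.234 times in the culture (1.011 to 1.504) and 2.765 times in the tail (2.271 to 3.368). All 3 genes therefore had the same order of codes, 4 above 2 above 1, in both libraries. Cartilage markers summed to 818.9 CPM in culture code 2 and 1305 CPM in tail code 2, also between the other codes.

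The same code was then compared between culture and tail. In code 4 the culture was lower for all 3 genes, at 0.3374 of the tail for *Sox9* (0.317 to 0.3589), 0.4182 for *Sox5* (0.3691 to 0.4732) and 0.2752 for *Sox6* (0.2366 to 0.319). A level at least 2-fold lower was found for 13% of the 9986 genes compared, and 2-fold higher for 4.86%. In code 1 the genes parted: the culture was higher for *Sox9*, at 1.706 times the tail (1.558 to 1.87), and for *Sox5*, at 1.407 times (1.188 to 1.673), but lower for *Sox6*, at 0.7343 (0.6037 to 0.8939). In code 2 it was lower for all 3, at 0.7168, 0.6533 and 0.3277 for *Sox9*, *Sox5* and *Sox6*. *Sox6* was thus the gene with the lowest culture level relative to the tail in each of the 3 codes. The libraries also differ in depth and in proliferation markers: *Top2a* was 5.12 times higher in culture code 4 (4.027 to 6.579). Its part in these differences was not tested. Within culture code 4, cells with a *Top2a* UMI over those without gave a ratio of 0.8744 for *Sox9* (0.7291 to 1.044), 0.6687 for *Sox5* (0.4561 to 0.9573) and 1.041 for *Sox6* (0.6806 to 1.555).

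The D6 PM library has its own clustering, so its codes are not those of the other libraries. Its code 4 had the highest sum of paraxial mesoderm markers of the library, 401.6 CPM, from all 6 genes. There *Sox5* stood at 21.39 CPM, *Sox6* at 15.46 and *Sox9* at 10.69, from 130, 94 and 65 UMIs. *Sox5* and *Sox6* were highest in this code, whereas *Sox9* was higher in code 5 (25.09 CPM), code 6 (24.8) and code 1 (20.53). Code 6 did not differ from its neighbours beyond counting error, and code 5 over code 1 was 1.223 (1.004 to 1.483). Code 4 was 2.384 times code 1 for *Sox5* (1.879 to 3.021) and 0.521 times for *Sox9* (0.394 to 0.6796). Code 5, which stays unnamed, had *Sox6* at 0.04386 of code 4 (0.01171 to 0.1161) and *Sox9* at 2.347 times (1.742 to 3.192). The 3 genes therefore did not share a leading code at this stage. Code 2, with pluripotency markers at 7444 CPM, was low for all 3, at 1.232 CPM for *Sox9*, 0.9853 for *Sox5* and 3.531 for *Sox6*.

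Between D6 PM code 4 and the later culture, *Sox9* differed far more than its partners. In that library *Sox5* and *Sox6* were highest in code 4 and *Sox9* was not, so the size of this gap depends on the code taken. Culture code 4 was 38.3 times D6 PM code 4 for *Sox9* (29.85 to 49.91), 5.132 times for *Sox5* (4.19 to 6.319) and 4.433 times for *Sox6* (3.472 to 5.699). Culture code 1 was 10.12 times D6 PM code 4 for *Sox9* (7.899 to 13.17), but 1.274 times for *Sox5* (1.046 to 1.56) and 0.9004 times for *Sox6* (0.7054 to 1.157). For *Sox6*, the tendon code of the culture and the paraxial mesoderm code were thus not distinguishable at this depth. Of the matrix genes, *Col11a1* was at 158.4 CPM in D6 PM code 4, *Col9a1* at 53.96 and *Col2a1* at 33.73. *Acan* and *Matn4* had no UMI there, which allows up to 0.4936 CPM (3 counts).

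To count cells at equal depth, 3000 UMIs were drawn from each cell, and cells below that depth were set aside. This kept 641 of 855 culture code 4 cells and 240 of 241 tail code 4 cells. In the culture, 57.88% of the cells had a *Sox9* UMI, 24.8% (21.51 to 28.34) a *Sox5* UMI and 16.69% (13.89 to 19.81) a *Sox6* UMI. In the tail the shares were 77.5%, 50.42% (43.91 to 56.91) and 42.08% (35.76 to 48.6). All of these rest on a single draw, as do the shares of pairs and the classes further on. Averaged over all possible thinnings, an alternative chosen after seeing the data, the shares were 58.15%, 25.79% and 16.75% in the culture. In the tail they were 77.36%, 44.39% and 43.22%. Without thinning they were 64.8%, 30.18% and 19.88% in the culture and 92.12%, 77.18% and 71.37% in the tail. In tail code 12, the blood cells, which should lack *Sox9* and *Sox5*, 0 of 125 thinned cells had either, which allows up to 2.4% (3 cells), and 0.8% had *Sox6*. In tail code 6, whose blood markers summed to 107944 CPM, 4.412% of 68 thinned cells had *Sox9* (0.9192 to 12.36), 1.471% had *Sox6* and 0 had *Sox5*, which allows up to 4.412% (3 cells). Median depth was 8392 UMIs in code 12, 12862 in code 6 and 13136 in tail code 4. The code 1 shares were 24.47%, 7.206% and 4.008% in the culture and 13.27%, 5.605% and 5.752% in the tail.

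The number of molecules per cell differed too. At 3000 UMIs, 15.44% of culture code 4 cells had 3 or more *Sox9* UMIs, against 48.75% in the tail, and the highest cell had 7 in the culture and 16 in the tail. For *Sox5*, 1.56% and 8.75% of the cells had 3 or more UMIs, with a maximum of 4 and 5. For *Sox6* these shares were 0.78% and 9.167%, also with a maximum of 4 and 5. Most cells scored for *Sox5* or *Sox6* therefore rested on 1 or 2 molecules, and a cell without a UMI may still express the gene.

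Joint detection was measured in the same thinned cells. In culture code 4, 31 of 641 cells, 4.836% (3.309 to 6.795), had UMIs of all 3 genes, where the product of the 3 shares gives 2.397%. In tail code 4 it was 66 of 240 cells, 27.5% (21.95 to 33.61), where the product gives 16.44%. Averaged over all possible thinnings instead of a single draw, an alternative chosen after seeing the data, the shares were 4.768% against a product of 2.512% and 22.93% against 14.84%. The trio was thus seen together more often than the product of its shares in both libraries, and the tail value depended on the draw. At least 1 of the genes was seen in 70.05% of culture cells and 85.42% of tail cells, and at least 2 in 24.49% and 57.08%. The highest share in the culture was that of *Sox9* alone, with 35.26% (31.56 to 39.1). No gene of the trio followed with 29.95% (26.43 to 33.66), and these intervals overlap. In the tail all 3 had 27.5%, *Sox9* alone 22.92% and *Sox9* with *Sox5* 17.5%. Over all thinnings, all 3 had 22.93% and *Sox9* alone 23.94%, so neither can be called the larger. *Sox5* with *Sox6* and no *Sox9* was rare, at 1.872% and 2.5%.

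**Figure D2:**
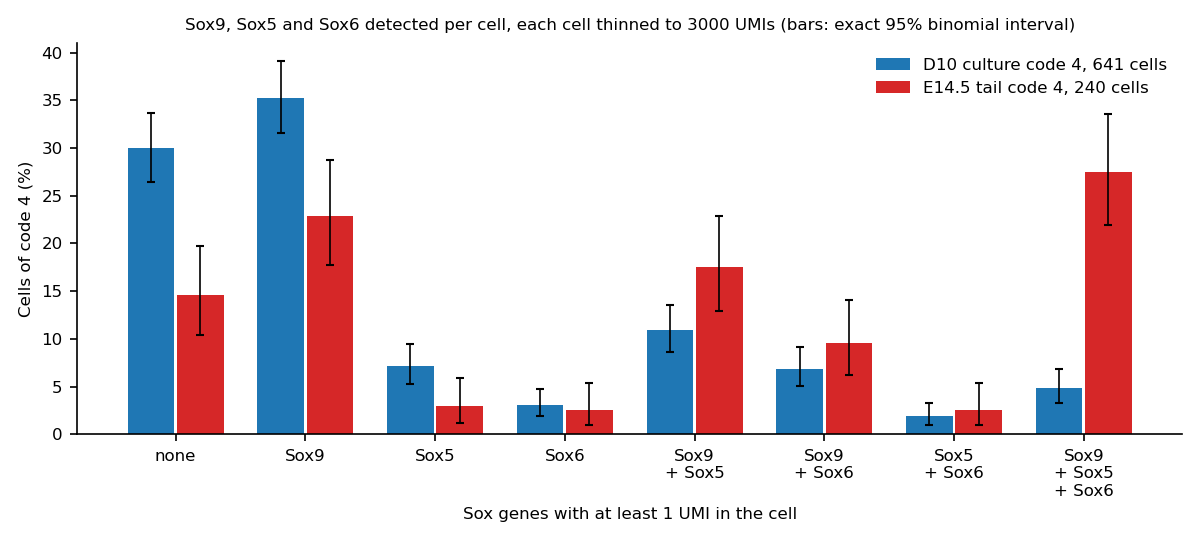
Share of code 4 cells, in percent, with each combination of *Sox9*, *Sox5* and *Sox6* UMIs after thinning to 3000 UMIs, in the D10 culture (641 cells) and the E14.5 tail (240 cells), with exact 95% intervals. In the culture, *Sox9* alone has the highest share (35.26%), with an interval that overlaps that of no gene of the trio (29.95%). In the tail, all 3 together (27.5%) and *Sox9* alone (22.92%) have overlapping intervals.

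In codes 1 and 2 fewer cells had all 3, but the share again exceeded the product. It was 0.3083% in culture code 1, where the product gives 0.07067%, and 1.032% in tail code 1 (7 cells, 0.4161 to 2.116), where it gives 0.0428%. Over all thinnings the tail value was 0.529%, against a product of 0.03483%. In code 2 it was 0.522% against 0.1652% in the culture and 4.839% against 0.3699% in the tail. In D6 PM code 4, 0 of 606 cells had all 3, which allows up to 0.495% (3 cells), and 3 cells had 2 of them. Within code 4, *Sox6* was seen in 27.04% (20.31 to 34.65) of culture cells with *Sox5* and 13.28% (10.38 to 16.64) of those without. In the tail it was 59.5% (50.2 to 68.33) against 24.37% (16.97 to 33.09). *Sox5* was seen in 58.06% of tail cells with *Sox9* and 24.07% of those without, but in 27.22% (22.76 to 32.06) and 21.48% (16.73 to 26.87) of the culture cells, where the intervals overlap. *Sox6* was thus seen more often beside *Sox5* in both libraries. Whether the libraries differ in how often *Sox9* and *Sox5* were seen together was not tested.

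*Acan*, which encodes the main cartilage proteoglycan, was seen in 57.01% (47.08 to 66.54) of culture code 4 cells with *Sox6* and 25.84% (22.18 to 29.78) of those without. For *Sox5* these shares were 40.25% (32.56 to 48.31) and 28.01% (24.04 to 32.25), and for *Sox9* 35.31% (30.45 to 40.41) and 25.19% (20.12 to 30.8). In the tail, *Acan* was seen in 36.63% of cells with *Sox6* and 15.11% of those without, in 38.84% and 9.244% for *Sox5*, and in 29.03% (22.62 to 36.12) and 7.407% (2.055 to 17.89) for *Sox9*. *Col2a1*, the main cartilage collagen, was seen in 99.07% of culture cells with *Sox6* (94.9 to 99.98) and 87.83% of those without (84.75 to 90.48). For *Sox9* the shares were 90.84% and 88.15% and for *Sox5* 93.71% and 88.38%, with overlapping intervals in both cases. In the tail, *Col2a1* was seen in 94.09% (89.66 to 97.01) of cells with *Sox9* and 62.96% (48.74 to 75.71) of those without. For *Sox6* the tail shares were 94.06% (87.52 to 97.79) and 82.01% (74.61 to 88.01), and for *Sox5* 90.91% (84.32 to 95.37) and 83.19% (75.24 to 89.42), with intervals that overlap.

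*Scx*, the tendon transcription factor, was less often seen beside each gene of the trio in the tail. It was seen in 52.69% (45.25 to 60.04) of tail code 4 cells with *Sox9* against 90.74% (79.7 to 96.92) without. It was seen in 49.59% (40.37 to 58.82) of tail code 4 cells with *Sox5* against 73.11% (64.21 to 80.82) without, and in 46.53% against 71.94% for *Sox6*. In the culture it was seen in 85.44% and 88.52% for *Sox9*, in 84.91% and 87.34% for *Sox5* and in 82.24% and 87.64% for *Sox6*, with overlapping intervals. By level, *Sox9* in tail cells with *Scx* was 0.3663 of that in cells without (0.3173 to 0.4222). *Sox5* in tail cells with *Scx* was 0.4632 of that in cells without (0.344 to 0.6214), and *Sox6* 0.4988 (0.3688 to 0.6727). In the culture these ratios were 0.8718 for *Sox9* (0.7116 to 1.077), 0.7121 for *Sox5* (0.4993 to 1.039) and 0.6727 for *Sox6* (0.4326 to 1.084), intervals that include 1.

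The known targets of the trio were described next, as a list of 20 cartilage matrix and related genes. Code 4 over code 1, 10 of the 20 passed the filter in the culture (detected in 10% or more of the cells in code 4 or code 1), and 9 of these were at least 2-fold higher and none lower, with a median log2 ratio of 3.36 against 0.02 over all genes compared. In the tail, 17 passed and all 17 were higher, with a median log2 ratio of 5.25 against 0.01. Over all genes compared, 1.54% were higher and 3.36% lower in the culture, and 3.65% and 6.28% in the tail. Of the genes called higher, 3 in the culture (*Acan*, *Chad* and *Col11a2*) met the filter only in code 4, where they are high. In the tail 8 did: *Acan*, *Chad*, *Col11a2*, *Fgfr3*, *Matn1*, *Matn3*, *Mia* and *Snorc*. These counts and medians are therefore no support for the direction, and the counts over all 20 are given as well. Of all 20, the interval of the ratio lay above 1 for 15 in the culture and 20 in the tail, and below 1 for 1 and 0. Over all genes with a UMI it lay above 1 for 12% in the culture and 11.3% in the tail, and below 1 for 10.6% and 12.2%.

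*Col2a1* was 10.41 times higher in code 4 in the culture (10 to 10.83) and 38.64 times in the tail (36.36 to 41.1). *Acan* was 18.46 times higher in the culture (15.68 to 21.82) and 262 times in the tail (141.8 to 548.4), where code 1 had 10 UMIs. *Col11a2*, another fibrillar collagen chain, was 35.84 times higher in the culture and 76.05 times in the tail. The ratio was thus larger in the tail for each of these, as for the Sox genes themselves. *Cnmd*, which encodes the cartilage protein chondromodulin, went the other way, at 52.82 in the culture (32.08 to 92.69) and 21.53 in the tail (17.78 to 26.27). *Hapln1*, which links aggrecan to hyaluronan, had 27.97 CPM in culture code 4 and 634.9 CPM in tail code 4. *Matn1*, a cartilage matrix protein, had 3 UMIs in culture code 4 and 561 in tail code 4. *Snorc* had 4 and 273 UMIs, and *Matn3* 8 and 298. *Col27a1* did not differ between codes 4 and 1 beyond counting error in the culture, at 1.03 (0.898 to 1.178), and was 3.043 times higher in the tail. *Epyc* was lower in culture code 4, at 0.4066 of code 1 (0.2616 to 0.607), and 8.191 times higher in tail code 4.

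**Figure D3:**
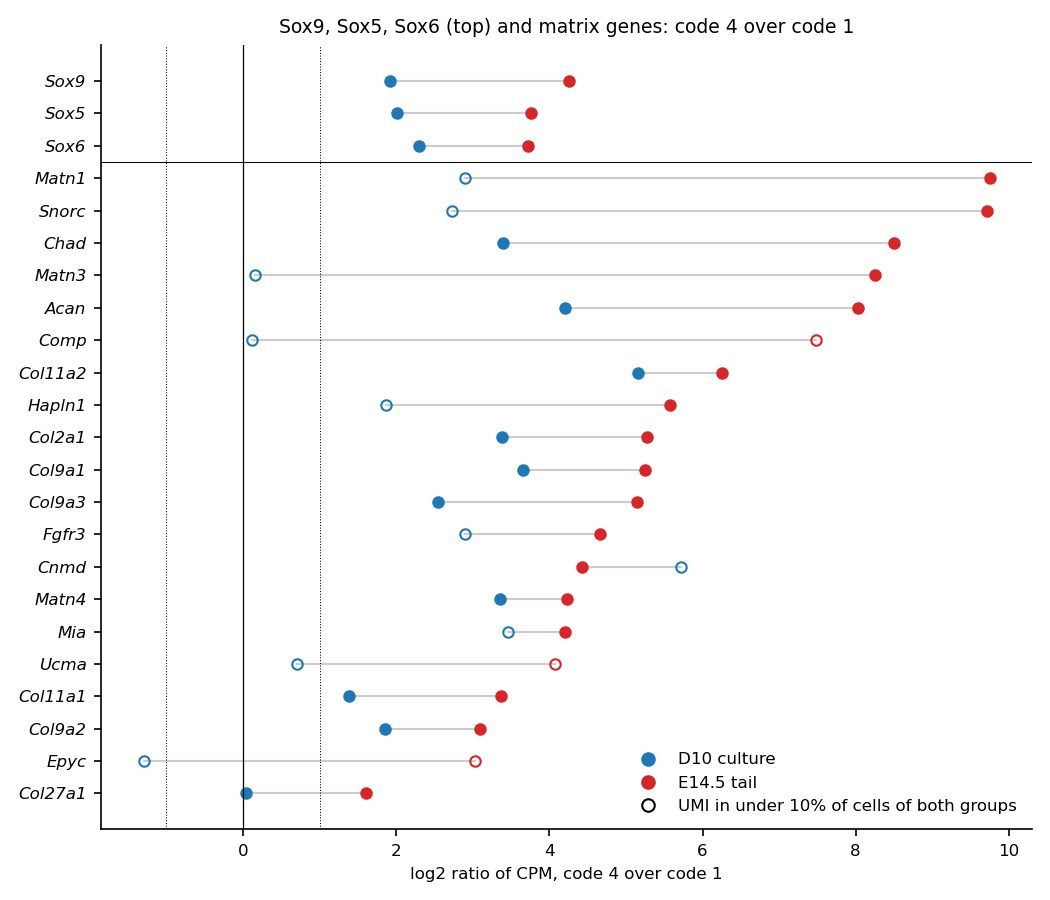
Log2 ratio of code 4 to code 1 for *Sox9*, *Sox5* and *Sox6* (top) and the 20 matrix genes. Points are the D10 culture (blue) and the E14.5 tail (red), without intervals, and a grey line joins them. Open symbols mark genes with a UMI in under 10% of the cells of both codes. The tail ratio exceeds the culture ratio for the 3 Sox genes (19.14 against 3.785 for *Sox9*) and for *Col2a1* (38.64 against 10.41), but not for *Cnmd* (21.53 against 52.82).

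Culture code 4 relative to tail code 4 varied widely over the list. Of the 17 matrix genes that passed the filter, 10 were at least 2-fold lower in the culture and none higher, where 13% and 4.86% of all genes were, with a median log2 ratio of -1.31 against -0.18. Of those 10, 7 (*Cnmd*, *Fgfr3*, *Hapln1*, *Matn1*, *Matn3*, *Mia* and *Snorc*) met the filter only in the tail, where they are high, so this count is no support for the direction. Of all 20, the interval lay below 1 for 18 and above 1 for 2, against 21.3% and 12.3% of all genes with a UMI. *Acan* was at 0.804 of the tail (0.7263 to 0.8898), *Matn4* at 0.7379 and *Col2a1* at 0.5304. *Hapln1* was at 0.04404 (0.03539 to 0.05423), *Snorc* at 0.01457 and *Matn1* at 0.005319. Only *Chad*, at 1.627 times (1.287 to 2.063), and *Ucma*, at 7.414 times from 82 and 11 UMIs, were higher in the culture. *Col2a1* and *Acan* therefore differed less between the libraries than *Sox9*, *Sox5* and *Sox6*, and *Hapln1*, *Snorc* and *Matn1* more.

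Of 22 chondrogenic regulators, 14 passed the filter in the culture, with 4 at least 2-fold higher in code 4 and 1 lower, and 17 in the tail, with 13 higher and 1 lower. Over all genes, 1.54% were higher and 3.36% lower in the culture, and 3.65% and 6.28% in the tail. In the culture, *Bmpr1b* and *Pax1* met the filter only in code 4 and *Prrx1* only in code 1. In the tail, *Foxc2*, *Nkx3-2* and *Runx3* met it only in code 4. All 22 were therefore counted too: the interval lay above 1 for 12 and below 1 for 2 in the culture, and for 17 and 1 in the tail. Over all genes with a UMI it lay above 1 for 12% in the culture and 11.3% in the tail, and below 1 for 10.6% and 12.2%. *Wwp2*, whose gene hosts a cartilage microRNA and which is a known SOX9 target, was 6.579 times higher in the culture (6.116 to 7.079) and 34.79 times in the tail (30.87 to 39.34). *Pax1* and *Pax9*, factors of the sclerotome, were 8.303 and 3.304 times higher in the culture and 8.818 and 2.252 times in the tail. *Bmpr1b*, a BMP receptor, was 4.989 and 2.699 times higher. *Prrx1*, a factor of early limb mesenchyme, was the gene lower in both, at 0.236 and 0.2294. *Foxc2* passed the rule in the tail alone, at 6.238 against 1.309 in the culture. *Nog*, which encodes the BMP antagonist noggin, was 5.204 times higher in tail code 4, with 221 UMIs, and had 11 UMIs in culture code 4.

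Other Sox genes were compared in the same way. Of all 16, the interval of code 4 over code 1 lay above 1 for 1 in the culture and 6 in the tail, and below 1 for 0 in both, against 12% and 11.3% of all genes above 1. The 3 that passed the filter, *Sox4*, *Sox11* and *Sox12*, did not reach 2-fold in either library. *Sox4* stood at 1.263 in the culture and 1.07 in the tail, *Sox11* at 0.9504 and 1.846, and *Sox12* at 0.932 and 1.11. *Sox8*, a close relative of *Sox9*, had 31 UMIs in culture code 4, at 9.322 CPM against 6.631 in code 1 (ratio 1.406, 0.9118 to 2.111). In tail code 4 it had 20 UMIs, at 6.047 CPM against 2.469 in code 1, a ratio of 2.449 (1.29 to 4.592). *Sox10*, the other relative, was 5.357 times higher in tail code 4 than in code 1 from 14 and 8 UMIs (2.097 to 14.74), but was found mainly in tail code 14, at 382.5 CPM, where *Sox2* stood at 239.9 CPM. Elsewhere *Sox2* led in D6 PM code 2, at 495.9 CPM, and culture code 3, at 373 CPM, and *Sox17* in D6 PM codes 3 and 1, at 531.1 and 519.5 CPM.

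Cells of code 4 were then grouped by how many of the trio had a UMI at 3000 UMIs, which gave 192, 292, 126 and 31 culture cells and 35, 68, 71 and 66 tail cells for 0, 1, 2 and 3 genes. Before thinning their median depths lay between 3946 and 4207 UMIs in the culture and between 12270 and 13790 in the tail. *Col2a1* was at 1530, 2035, 3188 and 4280 CPM over these classes in the culture and at 657.1, 1725, 4948 and 7030 CPM in the tail. *Acan* was at 88.54, 174.7, 304.2 and 602.2 CPM in the culture and 19.05, 34.31, 323.9 and 348.5 CPM in the tail. *Col2a1* was thus higher in each class with more of the trio in both libraries and *Acan* in the culture, while the steps of *Acan* in the tail from 0 to 1 and from 2 to 3 genes lay within counting error. *Hapln1* went from 10.42 to 139.8 CPM in the culture and from 28.57 to 1035 CPM in the tail. Of the 13 matrix genes with at least 10 UMIs in the culture, the interval of the ratio of 3 genes over none lay above 1 for 11, with a median ratio of 2.798. At 5000 UMIs per cell, which left fewer cells, it did for 7. In the tail it lay above 1 for 17 of 18, of which 6 had no UMI in cells with none of the trio and so reached 10 UMIs through the other class. Of all genes with at least 10 UMIs, 3.66% had an interval above 1 in the culture and 5.41% in the tail. Over the whole list of 20, whatever their UMIs, it lay above 1 for 12 in the culture and 17 in the tail and below 1 for 0 in both. Of all genes with a UMI it lay above 1 for 2.61% and 2.43%, and below 1 for 1.42% and 3.37%. Of the chondrogenic regulators with at least 10 UMIs, it lay above 1 for 2 of 14 in the culture (median ratio 1.083) and above 1 for 5 and below 1 for 3 of 15 in the tail. Among them, *Wwp2* was 3.528 times higher in the culture (2.693 to 4.599) and 10.72 times in the tail (6.69 to 18.3).

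Of the 7 tendon markers with at least 10 UMIs, the interval of 3 genes over none lay below 1 for 3 in the culture, where it did for 2.59% of all such genes, and for 4 in the tail, against 6.14%. *Scx* was at 2161, 1991, 1799 and 978.5 CPM in the culture and 4105, 2368, 1850 and 772.7 CPM in the tail. *Dcn*, a small proteoglycan of tendon, was at 0.177 in culture cells with all 3 genes relative to none (0.09833 to 0.2946), and *Col1a1*, the main tendon collagen, at 0.5539 (0.4329 to 0.6999). *Fmod*, another small proteoglycan, was higher, at 1.795 (1.437 to 2.228), and the intervals of *Col3a1* (0.8253), *Tnc* (0.7226) and *Mkx* (1.161) included 1. In the tail, *Pax1* also went down over the classes, at 2067, 1368, 1099 and 570.7 CPM. Of the 4 proliferation markers, 2 also lay below 1 in the culture: *Cenpf* was at 0.3643 in cells with all 3 genes relative to none (0.1153 to 0.884) and *Mki67* at 0.3687 (0.1167 to 0.8949), while the intervals of *Top2a* and *Ccnb1* included 1. In the tail 2 lay below 1 as well, from under 10 UMIs each. Their part in the other differences was not tested. In the culture *Pax1* was at 97.22 CPM with none of the trio and 53.76 CPM with all 3, a ratio of 0.553 whose interval includes 1 (0.1729 to 1.369).

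**Figure D4:**
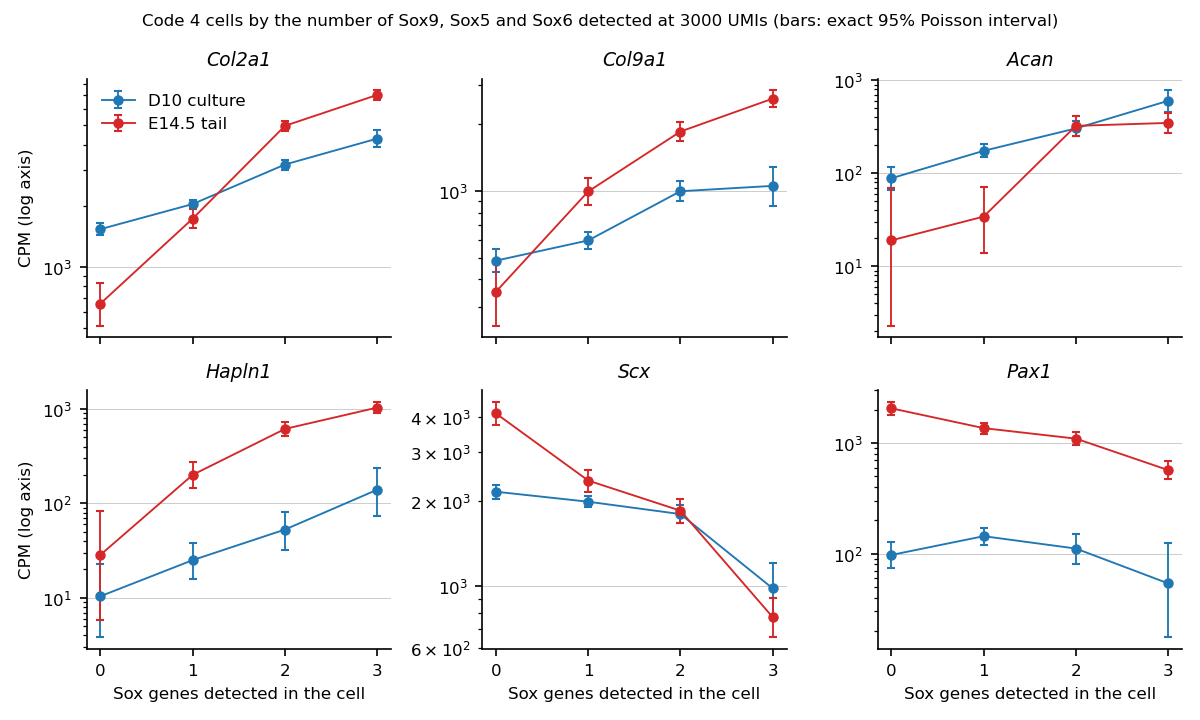
CPM of example genes in code 4 cells of the D10 culture and the E14.5 tail with 0, 1, 2 or 3 of *Sox9*, *Sox5* and *Sox6* detected at 3000 UMIs, with exact 95% Poisson intervals. *Col2a1* is higher in each class with more of the trio (1530 to 4280 CPM in the culture and 657.1 to 7030 in the tail) and *Scx* lower (2161 to 978.5 and 4105 to 772.7).

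Finally, genes with like patterns were listed, by Pearson's r of log2(CPM + 10) over the 27 codes with at least 50 cells. These codes share 3 libraries and their clustering, so r is a description. Among 12163 genes, those closest to *Sox9* were *Col2a1* (0.89), *Matn4* (0.88), *Adgrg6* (0.88), *Cspg4* (0.88) and *Bmpr1b* (0.87). For *Sox5* they were *D630003M21Rik* (0.86), *Col2a1* (0.86), *Col9a3* (0.85), *Col9a2* (0.85) and *Aff2* (0.84). For *Sox6* they were *Bmpr1b* (0.85), *Fgfr2* (0.84), *Fgfr3* (0.83), *Vwa2* (0.81) and *Adgrg6* (0.81). The lists of *Sox9* and *Sox5* shared *Col2a1*, and those of *Sox9* and *Sox6* shared *Bmpr1b* and *Adgrg6*. Among the trio itself, r was 0.81 for *Sox9* and *Sox5*, 0.72 for *Sox9* and *Sox6* and 0.68 for *Sox5* and *Sox6*. These lists depended on the measure: with Spearman's rho in its place, 0 of the 5 were kept for *Sox9*, and 1 each for *Sox5* and *Sox6*.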

How the data were processed

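The authors prepared droplet libraries with the 10x Genomics 3′ kit, processed them with Cell Ranger and Seurat 3.0 per the labels, filtered cells by mitochondrial share and UMI number, clustered them and deposited UMI counts per gene and cell with a cluster code; the reference genome of these libraries is not given in the sources used here. The deposited counts are raw whole numbers, and the highest mitochondrial share of a cell was 7.499%. No further cell filter was applied, and doublets called with Scanpy 1.11.5 (Scrublet), 116, 9 and 81 cells in the culture, tail and D6 PM, were kept. Total UMIs were 53403944, 31343741 and 51858825.

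Counts were summed per code and library in Python 3.11.15 (NumPy 2.4.6, Matplotlib 3.10.9 for figures, SciPy 1.17.1 for intervals). Intervals are Poisson for levels, conditional binomial for ratios and Clopper-Pearson for shares, all exact. Shares and joint detection used 3000 UMIs per cell (seed 1), leaving out 1157, 100 and 1006 shallower cells. A group under 20 cells got no level; in the text, a value of 0 is given with the limit that 3 cells or 3 counts of the total allow. The call rule was at least 2-fold among genes with a UMI in at least 10% of cells of either code. On simulated counts for code 4 over code 1 it recovered 200 of 200 genes changed 4-fold in the culture (5842 genes, 0 unchanged called). In the tail it recovered 200 of 200 (9911 genes, 4 unchanged called). The comparisons of the data held 7077 and 10654 genes. How the rule does on changes nearer 2-fold, or with variation between libraries, was not tested.

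Named genes were the Sox trio, the lists of matrix targets, chondrogenic regulators, other Sox genes and cell type markers, and for each of the trio the 5 genes of highest r among genes with at least 100 UMIs in all and 20 CPM in a code. The genes and lists were chosen with earlier results of these data known, and the motifs after promoter sequences had been seen. *Cnmd*, *Epyc*, *Chad*, *Nkx3-2*, *Sox14*, *Tnmd*, *Kera*, *Krt14* and *Krt5* were not analysed in D6 PM.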

Additional observations from a re-analysis of the deposited data

How the results depend on the processing

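No paired analysis was possible because each condition has 1 library and no result comes from a test. Settings tried were CPM without mitochondrial, ribosomal protein and haemoglobin genes, without doublets, without cells under 1000 genes, and as a mean over cells; other thinning depths and seed 2; and other fold rules and filters. The code 4 over code 1 ratio ranged from 3.933 to 4.074 for *Sox5* and from 4.341 to 4.977 for *Sox6* in the culture, and from 11.97 to 13.18 for *Sox6* in the tail. As a mean over cells, the tail ratio was 16.76 for *Sox9* and 11.13 for *Sox5*, and culture over tail in code 4 was 0.3683 for *Sox9*; 58 of 66 ratios of the trio stayed within their interval. The tail share with all 3 genes was 37.29% at 5000 UMIs, 58.51% without thinning and 21.67% with seed 2. At 5000 UMIs, 7 matrix genes rather than 11 had an interval above 1 for all 3 over none in the culture; fewer cells were left. With a UMI in at least 25% of cells, genes 2-fold higher and lower were 54 and 113 for code 4 over code 1 in the culture, 204 and 314 in the tail, and 246 and 615 for culture over tail. With at least 10 UMIs and no filter on share, they were 842 and 1531, 1010 and 1983, and 1196 and 2558. At 4-fold they were 33 and 59, 132 and 233, and 149 and 367. A reversal could be recorded only for ratios called different, and none reversed. Other values could only stay or move. At 5000 UMIs, 27 of 60 ratios by number of trio genes detected moved, as did 5 of 6 joint shares. Without thinning, 54 of 90 shares of cells moved. Without doublets, 71 of 71 ratios by number of genes detected and 89 of 90 shares of cells stayed. The order of the leading tail classes turned. All 3 genes had 27.5% and *Sox9* alone 22.92% in the single draw, against 22.93% and 23.94% over all thinnings. The average over all thinnings and seed 2 for the matrix genes were chosen after seeing the data. Depth limits the shares, and the culture class with all 3 genes held 31 cells.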
